A study of Homo sapiens with 16 samples.

Results

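The comparison set a PHF8-overexpressing stock of MCF10A cells against a Mock stock carrying an empty vector, both after 48 h of TGF-β1 at 5 ng/ml. MCF10A is a non-tumorigenic human mammary epithelial line, and all cells were grown with EGF, cholera toxin, insulin, hydrocortisone and horse serum. There were 4 libraries at 48 h among the 16 of the study, namely PHF8 and Mock in sequencing round 1 and PHF8 and Mock in round 2. The other 12 libraries held the same stocks without TGF-β1 and at 24 and 72 h of it. A gene was tested when its deposited log2 value was at least 3.33 in at least 2 of the 16 libraries, which held for 13564 of 23368 entries. Total RNA without ribosomal RNA was sequenced.

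PHF8 is a histone lysine demethylase of the JmjC family. Its PHD finger binds a methylated histone tail found at active promoters, and its catalytic domain removes methyl groups that accompany repression, so it is described as a transcriptional coactivator. TGF-β1 acts through a pair of receptor kinases and SMAD proteins. In mammary epithelial cells it induces the epithelial-mesenchymal transition (EMT), in which junction proteins are lost and mesenchymal and matrix genes are gained. The question put by the series title is whether PHF8 overexpression promotes EMT-related expression, and at 48 h it can be asked of cells already exposed to the cytokine.

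The labels name 1 stock of each kind, so the level of PHF8 cannot be told apart from any other difference between the stocks. They do not say whether rounds 1 and 2 came from separate cultures. A p-value here thus rests on the scatter of these libraries, part or all of which may be technical, and on the shift from round to round. With 2 libraries per group an exact permutation test cannot give a p below 0.333. Differences were therefore given within each round, and tests came from limma with 1 mean per group over all 16 libraries. The sum of the values on the linear scale was 18.8 to 21.2 M per library, the read counts were not analysed here, and the true depth is unknown. The basal mammary markers KRT5, KRT14, KRT17, TP63 and ITGB4 were detected, as were 5 of 8 luminal markers at the tested level, with PGR at 0 in every library.

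PHF8 itself was much higher in the PHF8 stock. It stood at 14.65 and 13.97 in the PHF8 libraries of rounds 1 and 2, against 9.34 and 9.48 in the Mock libraries, on the log2 scale. The groups were far apart in both rounds, by 5.31 in round 1 and 4.49 in round 2. PHF8 rose by a mean of 4.90 ± 0.332 (SE, n = 2 per group), or 29.9-fold, with adjusted p = 0.000143 in limma with Benjamini-Hochberg adjustment. Over all 4 conditions the 8 PHF8 libraries lay at 13.64 to 14.73 and the 8 Mock libraries at 9.26 to 9.72.

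PHF8 was also the only gene that passed the adjusted threshold of 0.05, which is 0.00737% of the genes tested. At an unadjusted p under 0.05 there were 393 genes (2.9%), 217 higher (1.6%) and 176 lower (1.3%) in the PHF8 stock. With the sequencing round as a block, which pairs the libraries as the labels do, 2 genes passed in limma (0.0147%), PHF8 with adjusted p = 2.89e-05 and IL2RA with adjusted p = 0.0482, and 1002 had an unadjusted p under 0.05 (7.39%). With the 4 libraries at 48 h fitted alone and the round as a block, 3 genes passed (0.0221%), namely PHF8, IL2RA (adjusted p = 0.0298 in limma) and BIRC3 (adjusted p = 0.0356).

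IL2RA, which encodes the α chain of the receptor for interleukin-2, was lower in the PHF8 stock. Its log2 levels were 13.57 and 12.97 in the PHF8 libraries and 14.71 and 14.63 in the Mock libraries. Both PHF8 libraries lay below both Mock libraries. The difference was -1.14 in round 1 and -1.66 in round 2, with a mean of -1.40 ± 0.278 (SE, n = 2 per group), adjusted p = 0.506 in limma without the block. With the block it passed the threshold. Differences of similar size were seen in the other conditions, at -1.19 and -1.79 untreated, -1.22 and -1.76 at 24 h and -1.09 and -1.54 at 72 h.

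**Figure D1:**
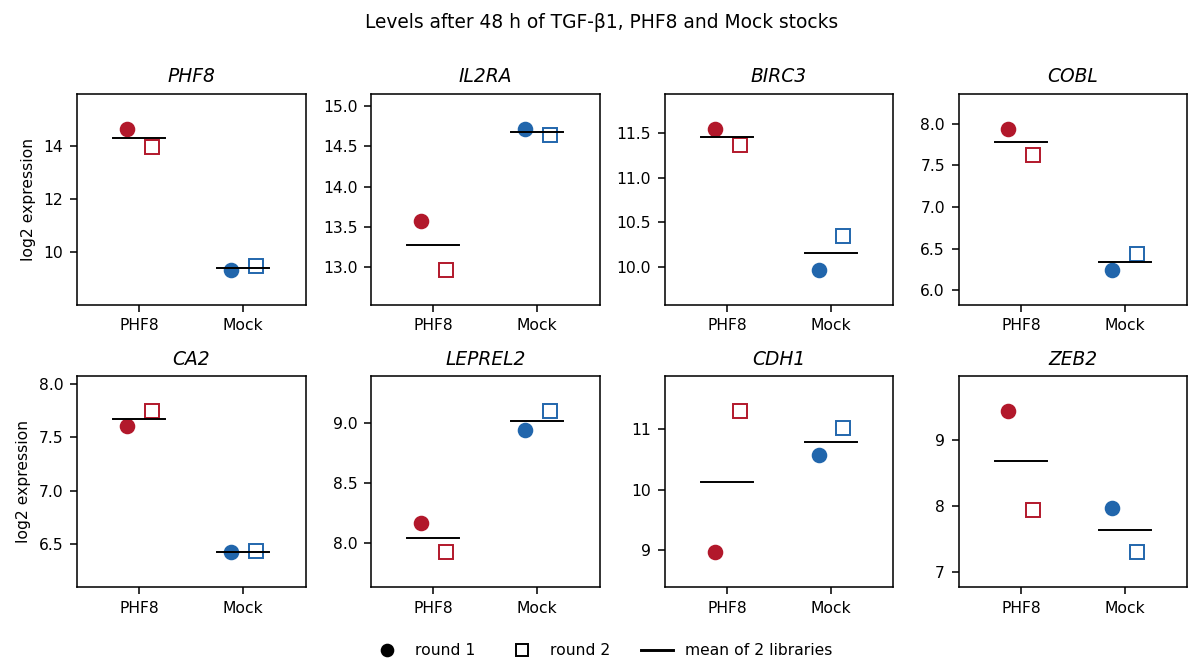
Log2 expression of 8 genes after 48 h of TGF-β1 in the PHF8 (left, red) and Mock (right, blue) stocks. Filled circles are round 1, open squares round 2, and bars the mean of 2 libraries. PHF8, BIRC3, COBL and CA2 lay higher and IL2RA and LEPREL2 lower in both PHF8 libraries than in both Mock libraries. CDH1 and ZEB2 overlapped between the stocks.

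Genes were next ranked by the smaller of their within-round differences, which asks for the same direction in both rounds and needs no estimate of spread. At least 2-fold in the same direction in both rounds were 19 genes higher (0.14%) and 10 lower (0.0737%) in the PHF8 stock, PHF8 included. With 10 added before the log, which shrinks the differences of weak genes, the count was 7 higher and 2 lower. Without PHF8 itself, round 1 had 219 genes at least 2-fold higher and 167 lower, while round 2 had 52 and 50. The spread of the differences across genes was wider in round 1 (SD 0.388) than in round 2 (SD 0.261). Across 13563 genes, the differences of the rounds had a Pearson r of 0.208 and a Spearman rho of 0.175, as a description, since genes are not independent replicates. Between the 48 h difference of 1 round and the difference of another condition in the other round, which share no library, r was 0.111 to 0.279. The ranking picked genes by the same values that are given below, so their agreement between rounds is no support for them.

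**Figure D2:**
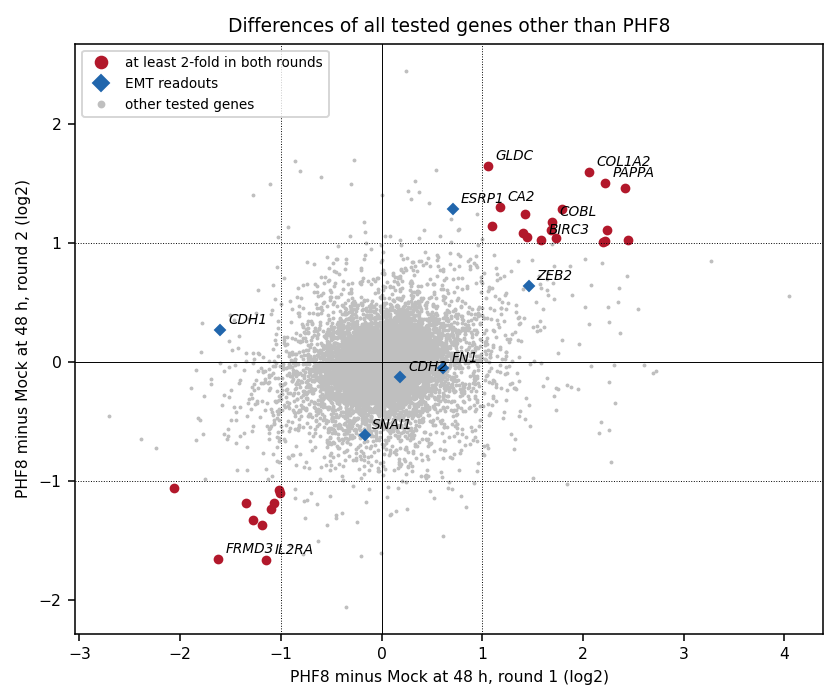
PHF8 minus Mock at 48 h in round 1 (x axis, log2) and in round 2 (y axis, log2) for 13563 genes, with PHF8 left out. Red circles are the 28 genes at least 2-fold apart in the same direction in both rounds, blue diamonds 6 EMT readouts, and dotted lines mark a log2 difference of 1. CDH1 lay at -1.60 in round 1 and 0.28 in round 2.

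COBL, an actin nucleator of the cordon-bleu family, had log2 levels of 7.94 and 7.62 in the PHF8 libraries, against 6.25 and 6.44 in the Mock libraries. The groups did not overlap, with a mean difference of 1.44 ± 0.248 (SE, n = 2 per group), adjusted p = 0.382 in limma and 0.0506 with the block. Carbonic anhydrase CA2, which hydrates carbon dioxide, had 7.60 and 7.74 in the PHF8 libraries, against 6.43 in each Mock library. It too separated the groups, by 1.24 ± 0.242, with adjusted p = 0.506 in limma and 0.0616 with the block. CA9 (2.20 and 1.01 in rounds 1 and 2) and CA8 (1.68 and 1.11) were also among the 2-fold genes, and neither passed the test.

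BIRC3, an inhibitor of apoptosis that is induced by NF-kB, had log2 levels of 11.55 and 11.37 in the PHF8 libraries and 9.97 and 10.34 in the Mock libraries. Both PHF8 libraries were above both Mock libraries, and the mean difference was 1.31 ± 0.221 (SE, n = 2 per group), adjusted p = 0.382 in limma and 0.0616 with the block. PAPPA, a secreted protease that cleaves insulin-like growth factor binding proteins, had 9.10 and 7.77 in the PHF8 libraries, against 6.88 and 6.26 in the Mock libraries. Its levels did not overlap between the stocks but were higher in round 1 in each of them, and its adjusted p was 1 in limma and 0.0506 with the block. The little characterised gene C9orf64 had 5.14 and 4.67 in the PHF8 libraries, against 3.73 and 3.58 in the Mock libraries, with adjusted p = 0.506 in limma and 0.0506 with the block.

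Other genes were at least 2-fold or nearly 2-fold apart in both rounds. PDK4, a kinase that inhibits pyruvate dehydrogenase, was higher by 2.42 in round 1 and 1.46 in round 2. CYP1B1, a cytochrome P450 induced by the aryl hydrocarbon receptor, was higher by 2.24 and 1.11, GALNTL2, a GalNAc transferase, by 2.44 and 1.03, and carboxypeptidase E (CPE) by 1.43 and 1.25. GLDC, the glycine decarboxylase of mitochondria, differed by 1.05 and 1.65, the membrane protein SLITRK5 by 1.44 and 1.06, and TMEM56 by 1.69 and 0.99. ABCA1, which exports cholesterol, differed by 1.79 and 1.29, the engulfment adaptor GULP1 by 1.73 and 1.04, and ODZ1, a teneurin, by 1.10 and 1.15. None of these 10 genes passed the adjusted threshold with or without the block.

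COL1A2, the α2 chain of type I collagen, was weakly expressed. It had log2 levels of 5.00 and 4.16 in the PHF8 libraries, against 2.95 and 2.56 in the Mock libraries. The groups did not overlap, but COL1A2 reached the level for testing only in 4 PHF8 libraries and in 0 Mock libraries, so it entered the test through the stock in which it was high, and its difference is no support for a change. Untreated, COL1A2 was at 2.23 and 2.33 in PHF8 and 2.13 and 2.09 in Mock.

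Genes lower in the PHF8 stock in both rounds included the postsynaptic scaffold DLG4 (-1.04 and -0.83 in rounds 1 and 2), the synaptic scaffold SHANK3 (-0.85 and -0.70), the kinesin KIF21B (-0.92 and -0.81), the amyloid precursor-like protein APLP1 (-0.75 and -0.84) and the glutamate transporter SLC1A1 (-0.91 and -1.54). ARRB1, an arrestin that ends receptor signalling, differed by -0.85 and -0.86, DISP2 by -1.01 and -1.10, and the ligand WNT7A by -2.24 and -0.72. None of these 8 passed the adjusted threshold with or without the block. TP53I11 differed by -1.76 and -0.98. The levels of WNT7A and TP53I11 overlapped between the stocks.

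LEPREL2, a prolyl hydroxylase of collagen, had log2 levels of 8.17 and 7.93 in the PHF8 libraries, against 8.94 and 9.09 in the Mock libraries. All PHF8 values were below all Mock values, with a mean difference of -0.97 ± 0.161 (SE, n = 2 per group), adjusted p = 0.382 in limma and 0.0616 with the block. COL6A1, a chain of type VI collagen, had 7.23 and 7.55 in the PHF8 libraries and 7.96 and 8.71 in the Mock libraries, a difference of -0.95 ± 0.252 with adjusted p = 1 in limma. FRMD3, a FERM domain protein, had 5.18 and 5.04 in the PHF8 libraries and 6.80 and 6.69 in the Mock libraries, a difference of almost the same size in both rounds (-1.62 and -1.65). The homeobox gene HOXB13 was weakly expressed, at 2.29 and 2.40 in the PHF8 libraries and 3.47 and 3.77 in the Mock libraries. It reached the level for testing in 3 Mock libraries and 0 PHF8 libraries, so its difference is likewise a description only. Of the 29 genes at least 2-fold apart, HOXB13 and COL1A2 were the ones that reached that level in 1 stock alone. The other weakly expressed genes at least 2-fold lower were the membrane-associated scaffold MPP2 (-2.06 and -1.05), AMPH, an amphiphysin of endocytosis (-1.27 and -1.32), the ceramide synthase CERS4 (-1.35 and -1.18), PLEKHF1 (-1.09 and -1.23), MN1 (-1.02 and -1.08) and KAL1, which encodes the matrix protein anosmin (-1.07 and -1.18). Of these 6, KAL1 had levels that overlapped between the stocks.

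**Figure D3:**
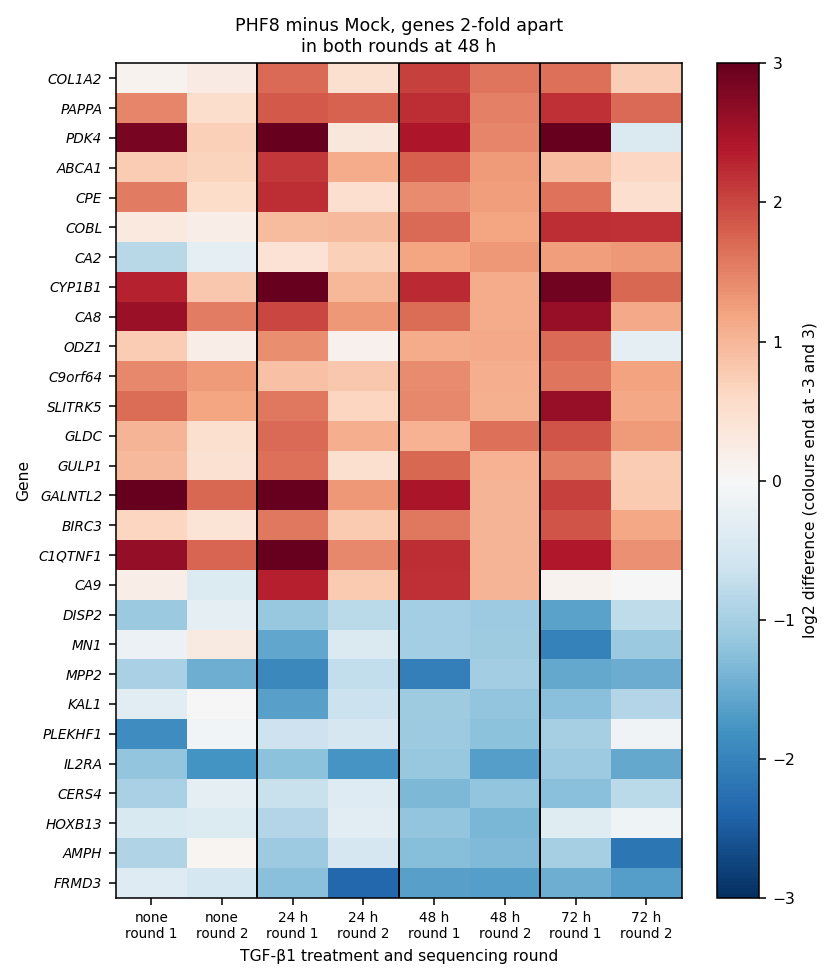
PHF8 minus Mock (log2, colour) for the 28 genes other than PHF8 that were at least 2-fold apart in both rounds at 48 h, in each round of each condition. Genes run from higher to lower in the PHF8 stock at 48 h. CA2 lay below 0 untreated in both rounds (-0.83 and -0.30) and above 0 at 24, 48 and 72 h.

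Most of these genes had the same direction in the libraries of other conditions, which the ranking did not use. Of the 18 higher genes other than PHF8, 16 were higher in both rounds untreated, 18 at 24 h and 15 at 72 h. Of the 10 lower genes, 8 were lower in both rounds untreated, 10 at 24 h and 10 at 72 h. The exceptions were CA2 and CA9 among the higher genes untreated, MN1 and AMPH among the lower genes untreated, and PDK4, ODZ1 and CA9 at 72 h. The median difference of the 18 higher genes was 0.87 untreated, 1.38 at 24 h and 1.42 at 72 h. That of the 10 lower genes was -0.54 untreated, -0.98 at 24 h and -1.25 at 72 h. These conditions come from the same stocks, so they repeat the stocks and not an independent overexpression.

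The difference at 48 h was compared directly with that in other conditions. Against the mean difference of the other 3 conditions no gene passed the adjusted threshold in limma (0%), with 50 at an unadjusted p under 0.05 (0.369%) and, with the block, 0 called (0%) and 142 at an unadjusted p under 0.05 (1.05%). Against the untreated difference there were 0 called (0%), with 124 at an unadjusted p under 0.05 (0.914%), or 0 (0%) and 346 (2.55%) with the block. No gene was therefore shown to differ between the stocks in a way particular to 48 h. The lowest p against the untreated difference belonged to CA2, followed by NFE2 and BRSK1, and against the other 3 conditions to RAB3A, followed by FBXO41 and BRSK1.

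CA2 untreated had log2 levels of 8.01 and 8.77 in the PHF8 libraries, against 8.84 and 9.07 in the Mock libraries. At 48 h the PHF8 libraries were at 7.60 and 7.74 and the Mock libraries at 6.43, so that the order of the stocks was the opposite in both rounds. The change in the difference was 1.81 ± 0.342 (SE, n = 2 per group), unadjusted p = 0.000241 and adjusted p = 1 in limma, or 0.297 with the block. BRSK1, a brain kinase of the AMPK-related family, had 4.69 and 4.85 in the PHF8 libraries at 48 h and 5.55 and 5.99 in the Mock libraries. Untreated it had 4.03 and 4.34 in the PHF8 libraries and 3.74 and 3.31 in the Mock libraries, a change of -1.66 ± 0.382 (adjusted p = 1 in limma). NFE2, a blood-cell transcription factor, was below the threshold for testing in all 4 libraries at 48 h (2.25 and 2.48 in PHF8, 2.28 and 2.29 in Mock).

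COBL and BIRC3 had another course. COBL untreated stood at 9.10 and 9.55 in the PHF8 libraries and 8.81 and 9.35 in the Mock libraries. By 72 h it was at 7.46 and 7.91 in the PHF8 libraries and 5.23 and 5.71 in the Mock libraries, and its difference was 0.29 and 0.20 untreated, 0.94 and 0.97 at 24 h, 1.69 and 1.18 at 48 h, and 2.22 and 2.20 at 72 h. Levels were lower at 72 h than untreated in both stocks, and the gap between the stocks was wider at 72 h than untreated in both rounds. RAB3A, a vesicle GTPase, had 3.63 and 3.39 in the PHF8 libraries at 48 h and 4.39 and 4.70 in the Mock libraries, and its difference against the other 3 conditions was -1.07 ± 0.257 (SE, n = 2 per group) with adjusted p = 1 in limma. BIRC3 differed by 0.64 and 0.41 untreated, 1.59 and 0.79 at 24 h, 1.59 and 1.03 at 48 h, and 1.89 and 1.15 at 72 h. The change against untreated had adjusted p = 1 in limma for COBL and for BIRC3, with and without the block.

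**Figure D4:**
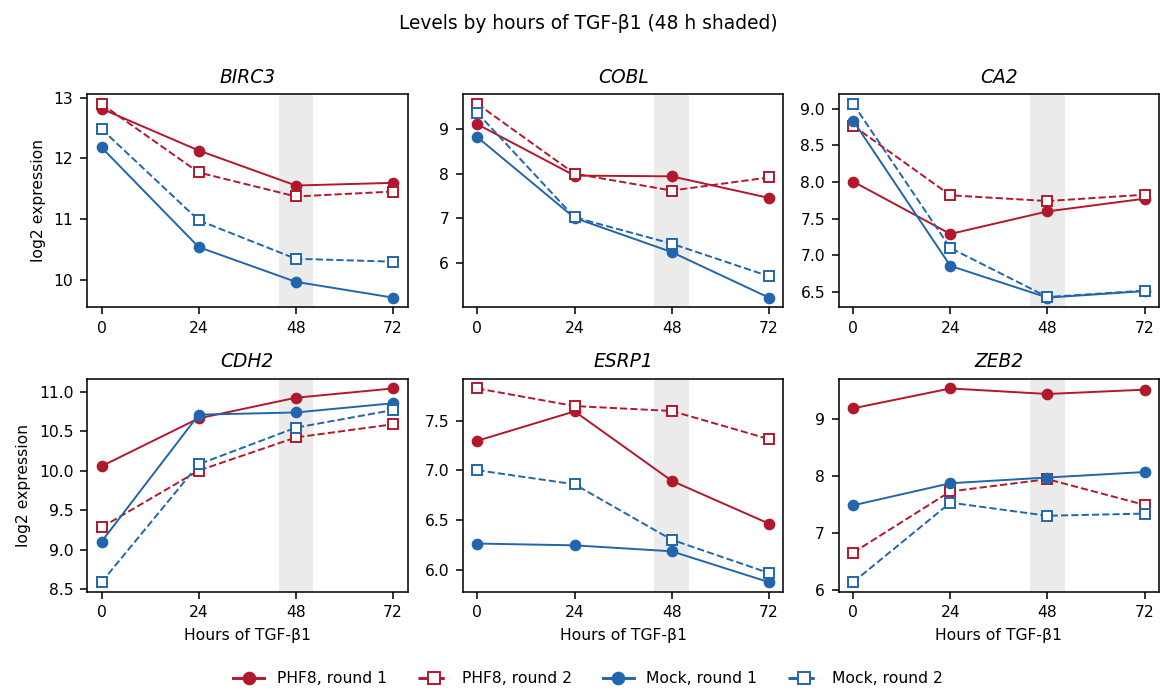
Log2 expression against hours of TGF-β1 (0 is untreated) for 6 genes in the PHF8 (red) and Mock (blue) stocks, with round 1 as filled circles and solid lines and round 2 as open squares and dashed lines. The shaded band marks 48 h. BIRC3, COBL and CA2 lay higher in the PHF8 stock at 48 h, CDH2 overlapped, and ZEB2 was higher in the round 1 PHF8 libraries than in any other library.

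None of the 11 EMT readouts passed the test at 48 h, and the levels of 10 overlapped between the stocks. E-cadherin (CDH1), the adhesion protein of epithelial junctions, had log2 levels of 8.97 and 11.29 in the PHF8 libraries, against 10.57 and 11.01 in the Mock libraries. It was lowest in the round 1 PHF8 library and highest in the round 2 PHF8 library, so the groups overlapped and the difference was -0.66 ± 0.87 (SE, n = 2 per group), adjusted p = 1 in limma. The rounds disagreed in the same way at 24 h (-1.37 and 0.17) and at 72 h (-1.59 and 0.29). Untreated, CDH1 was lower in the PHF8 stock in both rounds (-1.23 and -0.19). In bulk RNA, fewer cells of a type and less RNA per cell cannot be told apart.

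N-cadherin (CDH2), its mesenchymal counterpart, had 10.92 and 10.42 in the PHF8 libraries and 10.74 and 10.54 in the Mock libraries. Fibronectin (FN1) had 18.52 and 18.49 in the PHF8 libraries and 17.91 and 18.54 in the Mock libraries, and vimentin (VIM) 15.73 and 15.37 in the PHF8 libraries and 15.52 and 15.59 in the Mock libraries. Levels of these 3 genes overlapped, and in round 2 each was slightly lower in the PHF8 stock.

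The transcription factors that repress CDH1 gave no common picture. SNAI1 had log2 levels of 7.28 and 8.64 in the PHF8 libraries, against 7.45 and 9.25 in the Mock libraries. ZEB2 had 9.44 and 7.95 in the PHF8 libraries and 7.97 and 7.31 in the Mock libraries, higher in both rounds, with levels that overlapped and a difference of 1.05 ± 0.922 (SE, n = 2 per group). ZEB1 differed by 0.90 and 0.22, TWIST1 by 0.35 and 0.29 and SNAI2 by -0.20 and -0.14, and SMAD7, the inhibitory SMAD that TGF-β itself induces, by 0.44 and -0.16. Adjusted p was 1 in limma for each of these 6 genes.

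Of the 11 readouts ESRP1 alone separated the stocks, while 13.6% of all tested genes lay above and 11.7% below without overlap. ESRP1, a splicing factor of epithelial cells whose loss accompanies EMT, had log2 levels of 6.90 and 7.60 in the PHF8 libraries and 6.19 and 6.31 in the Mock libraries. Both PHF8 libraries were higher, by 1.00 ± 0.353 (SE, n = 2 per group), with unadjusted p = 0.0161 and adjusted p = 1 in limma, or 0.237 with the block. It was higher in both rounds untreated (1.03 and 0.82), at 24 h (1.34 and 0.78) and at 72 h (0.59 and 1.34). Occludin (OCLN), a tight junction protein, had 6.01 and 6.91 in the PHF8 libraries and 5.32 and 5.70 in the Mock libraries, with adjusted p = 1 in limma. Untreated, OCLN differed by -0.15 and 0.04. In the other direction without overlap stood CRB3 of the junction list (-1.27 and -0.23) and MST1R of the epithelial regulators (-1.25 and -0.15). Of 27 junction genes 2 lay above and 2 below without overlap, and of 15 epithelial regulators 1 and 1.

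Gene lists were compared by their direction within rounds, next to all tested genes, of which 28.2% were higher and 28% lower in the PHF8 stock in both rounds. No list held a gene that passed the adjusted threshold in limma. Among 27 junction genes 6 were higher and 6 lower in both rounds, and the median difference was -0.08. Among 17 EMT transcription factors 4 were higher and 5 lower, with a median of 0.01. Among 15 mesenchymal and contractile genes 4 were higher and 5 lower, and among 31 TGF-β ligands, receptors and SMAD targets 9 were higher and 9 lower. These shares lay near the background.

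S100A4, a calcium-binding protein of motile cells, was the mesenchymal gene with the largest difference that kept its direction, at 9.77 and 8.13 in the PHF8 libraries and 7.42 and 7.50 in the Mock libraries. Smooth muscle actin (ACTA2) had 8.41 and 8.56 in the PHF8 libraries and 7.61 and 8.04 in the Mock libraries, and the cadherin CDH11 had 6.74 and 7.25 in the PHF8 libraries and 7.40 and 7.84 in the Mock libraries. All 3 had groups that did not overlap, and adjusted p was 1 in limma for each. They were picked for the largest differences that kept their direction, so their lack of overlap is no support. Of the 15 tested members of their list, 2 lay above and 2 below without overlap. Of all tested genes, 13.6% lay above and 11.7% below without overlap.

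Among 13 integrins 2 were higher and 5 lower in both rounds. ITGB6, the epithelial partner of the αv chain that activates latent TGF-β, had 10.57 and 12.97 in the PHF8 libraries and 12.40 and 13.44 in the Mock libraries, and the levels overlapped. ITGB4, the hemidesmosome chain, differed by -0.92 and -0.34. Of 25 matrix genes 7 were higher and 5 lower, and of 18 matrix proteases and their inhibitors 3 were higher and 5 lower. The stromelysin MMP3 was at 4.23 and 3.45 in the PHF8 libraries and 2.17 and 3.13 in the Mock libraries. Both Mock values lay below the level for testing, so the MMP3 difference is a description only.

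Of the 26 lists, that of acute-phase and complement genes had the highest share of members higher in the PHF8 stock in both rounds. Of 14 tested members 11 were higher and 0 lower in both rounds. Without overlap, 8 members lay above the Mock libraries, against 13.6% of all tested genes. The median difference was 0.62. In limma 5 members had an unadjusted p under 0.05, all in the higher direction, against 1.6% of all tested genes. The list had 0 called. Like the other lists it was written with earlier results of these data known, so these shares are no independent support. C1QTNF1, a secreted C1q-related protein, had log2 levels of 6.25 and 5.71 in the PHF8 libraries, against 4.04 and 4.69 in the Mock libraries. Complement factor B (CFB) had 9.02 and 7.72 in the PHF8 libraries and 6.58 and 7.00 in the Mock libraries, and serum amyloid SAA2 had 6.44 and 6.72 in the PHF8 libraries and 5.50 and 5.83 in the Mock libraries. In these 3 genes both PHF8 libraries were higher. Reads of SAA2 and its near-identical neighbour SAA1 may have been split between them, so the SAA2 values are uncertain.

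Other members were picked after their values were seen. The protease C1R, which starts the classical complement cascade, had 9.18 and 9.16 in the PHF8 libraries and 7.53 and 8.45 in the Mock libraries. SERPINA3, a protease inhibitor of the acute phase, had 11.87 and 11.68 in the PHF8 libraries and 9.32 and 11.23 in the Mock libraries, with the round 1 Mock library far below the other 3. Complement C3 differed by 0.64 and 0.20. The median over the list was 0.68 in round 1 and 0.34 in round 2, and in the other conditions it was 1.09 and 0.52 untreated, 1.15 and 0.73 at 24 h and 0.60 and 0.55 at 72 h.

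Among 27 hypoxia and glycolysis genes 20 were higher and 3 lower in both rounds, with a median difference of 0.16 and 0 called. Carbonic anhydrase CA9, a target of hypoxia-inducible factor, had log2 levels of 6.14 and 4.23 in the PHF8 libraries and 3.94 and 3.22 in the Mock libraries. The glucose transporter SLC2A3 had 6.05 and 6.36 in the PHF8 libraries and 5.03 and 5.61 in the Mock libraries, and SLC2A1 differed by 0.49 and 0.40. The glycolytic enzymes ALDOC (1.09 and 0.36) and PGK1 (0.32 and 0.22) were picked after their values were seen. At 72 h CA9 differed by 0.11 and -0.01.

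Among 29 interferon response genes 17 were higher and 5 lower in both rounds, with a median of 0.25. XAF1 differed by 0.42 and 0.54, the RNA sensor IFIH1 by 0.34 and 0.50, and IFIT2, in the other direction, by -0.30 and -0.55. The median over the list was 0.22 and 0.21 untreated.

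Among 22 cytokines and NF-kB targets 10 were higher and 3 lower in both rounds, with a median of 0.16. IL6 had log2 levels of 5.86 and 6.85 in the PHF8 libraries and 4.91 and 6.05 in the Mock libraries, higher in both rounds but with levels that overlapped. The mitochondrial superoxide dismutase SOD2, picked after its values were seen, differed by 1.34 and 0.48. In the other direction stood TNFAIP2, at 9.05 and 9.86 in the PHF8 libraries and 10.02 and 10.50 in the Mock libraries. IL1B, also picked afterwards, was lower as well (-1.80 and -0.49).

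Upstream sequences are shown for BIRC3 and IL6, the list members furthest above Mock in both rounds, and for IL2RA, the gene called with the block. They are the 250 bases before the start of each gene in RefSeq on GRCh38.p14, which is not the build the submitters aligned to. Capitals mark matches on either strand to an NF-kB-type motif, which is GGG, any 3 bases and TTCC.
BIRC3: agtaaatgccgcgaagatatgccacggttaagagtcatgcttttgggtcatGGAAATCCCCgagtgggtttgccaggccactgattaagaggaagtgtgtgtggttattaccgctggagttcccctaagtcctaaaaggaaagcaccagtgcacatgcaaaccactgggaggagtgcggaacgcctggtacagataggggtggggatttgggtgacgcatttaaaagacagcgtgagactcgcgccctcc
IL6: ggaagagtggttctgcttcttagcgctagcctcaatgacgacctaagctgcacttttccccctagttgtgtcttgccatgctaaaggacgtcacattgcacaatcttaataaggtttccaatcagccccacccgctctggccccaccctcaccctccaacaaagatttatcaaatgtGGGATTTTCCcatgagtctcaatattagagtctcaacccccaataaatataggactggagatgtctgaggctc
IL2RA: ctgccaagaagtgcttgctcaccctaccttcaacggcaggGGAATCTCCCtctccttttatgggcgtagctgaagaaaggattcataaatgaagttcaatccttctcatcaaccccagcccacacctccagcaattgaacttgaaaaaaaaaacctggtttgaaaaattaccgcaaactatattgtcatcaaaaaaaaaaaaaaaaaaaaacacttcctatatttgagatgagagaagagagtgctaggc
The windows are chr11:102317234-102317483 on the + strand for BIRC3, chr7:22726950-22727199 on the + strand for IL6 and chr10:6062368-6062617 on the - strand for IL2RA, each read 5′ to 3′ along the gene. The match began 199, 73 and 210 bases before the start. Such a match stood in 5.67% of 35116 windows of this length. It stood in 12 of 20 genes of the cytokine and NF-kB list that had a window and in 1 of 10 of the acute-phase and complement list. Of the 29 genes 2-fold apart in both rounds 16 had a window, and the 2 of them with a match were BIRC3 and IL2RA, shown above. A gene counted when any of its windows matched, so these counts are not on the same basis as the share of single windows. IL2RA carried a match and was lower, and BIRC3 carried one and was higher, and a match of letters says nothing about binding.

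Among 32 cell cycle genes 15 were higher and 2 lower in both rounds, but the median was -0.05 in round 1 and 0.13 in round 2. The mitotic kinase AURKA differed by 0.43 and 0.25 and cyclin B1 (CCNB1) by 0.23 and 0.19, while cyclin D1 (CCND1) differed by -0.27 and -0.24. In round 1 the list had a median of -0.47 untreated and -0.86 at 24 h. Of 21 genes of ribosome biogenesis with MYC, 20 had opposite signs in the rounds, with a median of -0.27 in round 1 and 0.11 in round 2.

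Of 18 replication-dependent histone genes 0 were higher and 9 lower in both rounds, with a median of -0.13 and 0 called. HIST1H2AC differed by -0.23 and -0.27 and HIST2H2BE by -0.20 and -0.18. Histone genes have near-identical copies that can share reads, so single members are uncertain. Among 21 other histone demethylases 7 were higher and 7 lower. PHF2, a close relative of PHF8, differed by -0.34 and -0.28, KDM3A by 0.50 and 0.23 and KDM1B by 0.28 and 0.25. Of 13 genes listed for methylation of the histone residues that PHF8 demethylates, 3 were higher and 5 lower. Among them SUV420H2, a methyltransferase of histone H4, was at 6.15 and 6.25 in the PHF8 libraries and 6.75 and 6.68 in the Mock libraries. None of these differences passed the adjusted threshold in limma.

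The remaining lists are given beside all tested genes, of which 28.2% were higher and 28% lower in both rounds. Of 22 cholesterol synthesis genes 9 were higher (40.9%) and 4 lower (18.2%), with a median difference of 0.04. Of 18 unfolded protein and amino acid stress genes 6 were higher and 4 lower, and of 13 heat shock proteins 2 and 2. Of 13 keratins 3 were higher and 2 lower, of 13 keratinocyte differentiation genes 4 and 2, and of 15 epithelial regulators 2 and 3.

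**Figure D5:**
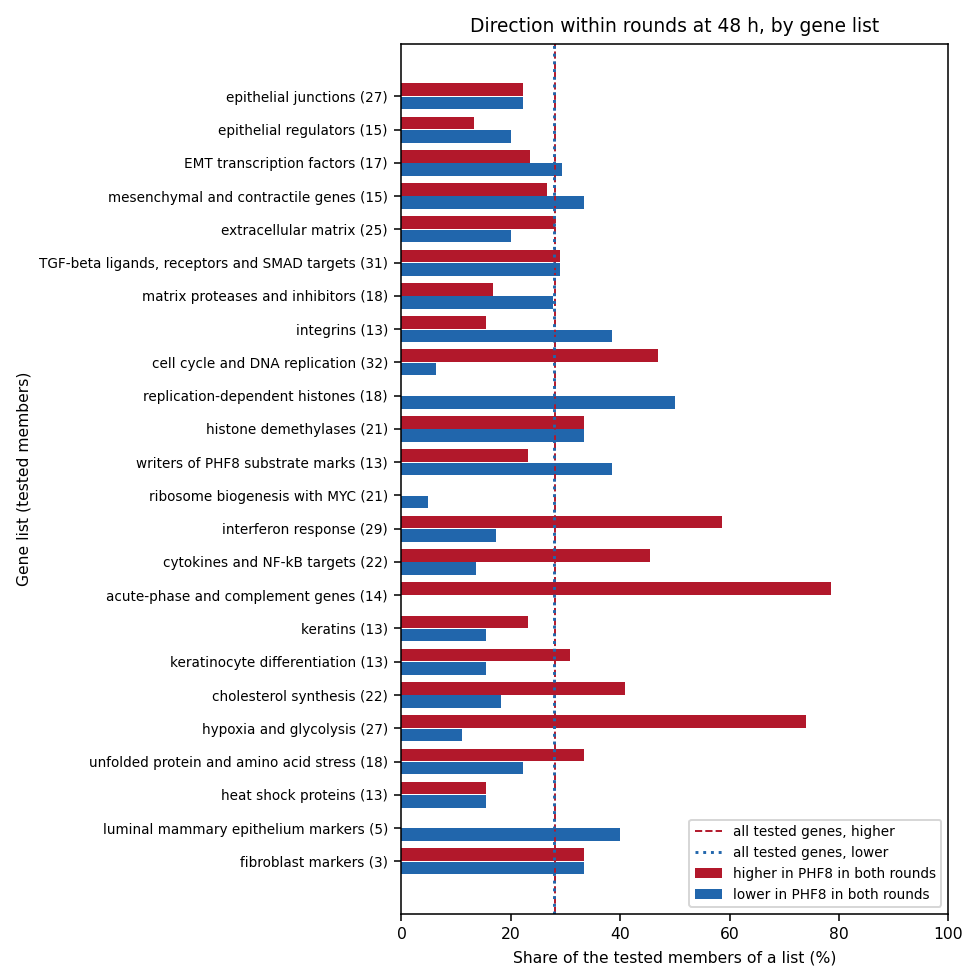
Share of the tested members of each gene list that were higher (red) or lower (blue) in the PHF8 stock in both rounds at 48 h, without the basal and the endothelial and blood markers, with the number of tested members in brackets. Dashed and dotted lines mark all tested genes (28.2% higher and 28% lower). The acute-phase and complement list and the hypoxia and glycolysis list had 78.6% and 74.1% of members higher.

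Markers of other cell types were examined beside these lists. Of 6 basal markers 0 were higher, 2 lower and 4 mixed between the rounds, with a median difference of -0.63 in round 1 and 0.16 in round 2. Their linear sums, in units of 1000, were 277 and 478 in the PHF8 libraries and 365 and 460 in the Mock libraries. TP63, the basal transcription factor, had the lowest mean difference of the list. Its log2 levels were 9.66 and 11.51 in the PHF8 libraries and 11.03 and 11.57 in the Mock libraries, low in the round 1 PHF8 library as CDH1 was. Luminal markers had 0 of 5 higher and 2 lower, with linear sums, in units of 1000, of 10.6 and 13.3 in the PHF8 libraries and 11.8 and 13.3 in the Mock libraries.

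Of 8 fibroblast markers 3 were tested, with sums in those units of 8.34 and 7.39 in the PHF8 libraries and 5.59 and 7.52 in the Mock libraries. Decorin (DCN), a matrix proteoglycan, had log2 levels of 11.57 and 9.61 in the PHF8 libraries and 9.32 and 9.14 in the Mock libraries. FAP had 12.06 and 12.43 in the PHF8 libraries and 12.10 and 12.44 in the Mock libraries. Of the endothelial and blood markers, CD3E and HBB were at 0 in every library, while others were detected. PECAM1, an adhesion protein of endothelial and blood cells, had log2 levels of 3.58 and 3.75 in the PHF8 libraries and 3.91 and 3.87 in the Mock libraries, lower in both rounds. The receptor KDR differed by 0.70 and -0.12, and CD14, a marker of monocytes, by -0.43 and 0.08. The part of other cells in the differences was not tested.

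The authors' deposited table gives log2 differences of the untreated stocks and a list of 39 symbols, all at least 2-fold apart in both of its columns, 33 higher and 6 lower. These come from untreated libraries of the same stocks, so the values at 48 h are a repeat in other libraries. Of 28 higher genes tested at 48 h other than PHF8, 19 were higher and 0 lower in both rounds, 5 of them at least 2-fold, with a median of 0.89. Of the 6 lower genes 5 were lower in both rounds, 1 of them at least 2-fold (IL2RA), with a median of -1.07. The 5 at least 2-fold higher were C1QTNF1, GALNTL2, CA8, C9orf64 and SLITRK5.

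The genes named next were picked after their values were seen, as exceptions. Each pair of values gives round 1 first and round 2 second. KRT15, a keratin of basal cells, was among the lower genes of the authors' deposited table (-1.65 and -1.20). It stood higher in the PHF8 stock at 48 h, by 0.03 and 0.75. MYBPC1, a muscle protein with 4.48 and 1.74 in the authors' deposited table, differed by 0.13 and -0.03 at 48 h. EDN2, an endothelin with 4.12 and 1.36 there, per the authors' deposited table, differed by 1.25 and -0.23 at 48 h.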

How the data were processed

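Gene expression at 48 h of TGF-β1 was taken from the authors' deposited log2 expression table of 16 libraries in 8 groups of 2. Per the submitters' processing notes, reads were aligned to hg19 with TopHat2 2.0.13, counted with featureCounts from Subread 1.4.6, and processed with DESeq2, whose role is not given. The authors' transformation to log2 values is not given in the sources used here. Values of weak genes look shrunk towards the gene's mean, which would make their differences too small. Another deposited sheet gave the authors' log2 differences, and its 4 columns that match no sample were not used. A sum of 2 to the power of each value served as a check of scale, not of depth.

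Entries with a symbol turned into a date (28) or at 0 in every library (4064) were left out of the fit. The value threshold was 3.33 in at least 2 libraries. The main test was limma 3.58.1 in R 4.3.3 with a mean-variance trend, 1 mean per group and Benjamini-Hochberg adjustment over 13564 genes at 0.05, and was checked on simulated data. No pseudocount was added. The replicate number is the sequencing round in the labels, and deviations within rounds correlated at 0.206 to 0.749 over 28 pairs of groups (0.541 between the groups at 48 h), so the block is given where it changed a call.

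Named genes were PHF8, called genes, the 12 highest and 12 lowest by the smaller within-round difference among genes with a mean of at least 6, EMT readouts, up to 3 per list, and the 3 lowest p of each contrast between conditions. To these were added genes at least 2-fold apart in both rounds and those said to be picked afterwards. The 26 lists held 505 symbols, of which 502 were found and 445 tested. The comparison, members and lists were chosen with earlier results of these data known. Promoters were matched by symbol in a RefSeq table. The alternatives were the round as a block, other filters, quantile normalisation, 10 added before the log, no mean-variance trend, the 4 libraries at 48 h alone, and each library left out. Values of some members of the marker lists are not reported here.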

Additional observations from a re-analysis of the deposited data

Results flagged for a closer look

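For 14 named genes both rounds moved one way at 48 h and the opposite way in another condition. Against untreated, the difference was tested in limma for CA2 (mean 1.24 at 48 h), SNAI1 (-0.39), ITGB4 (-0.63), DNAJA1 (0.25), GATA3 (-0.13), FBXO41 (0.36), BRSK1 (-0.997), PGK1 (0.27) and MKI67 (0.17), and adjusted p was 1 for each. CA2 stood at -0.83 and -0.30 untreated, and BRSK1 at 0.29 and 1.04. Against 24 h the difference was not tested for CCNB1 (0.21), EZH2 (0.21), PECAM1 (-0.22), RAB3A (-1.03), FBXO41 (0.36) and TOP2A (0.38), nor against 72 h for PECAM1 (-0.22) and FBXO41 (0.36). RAB3A, a vesicle GTPase, stood at -0.76 and -1.31 at 48 h and at 0.03 and 0.26 at 24 h. PGK1 was within 0.01 of level untreated.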

How the results depend on the processing

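PHF8 was called, and was the only gene called, without any 1 of the 16 libraries, and both contrasts between conditions stayed at 0 called under every alternative run. PHF8's own difference was 4.56 to 5.24 with 1 library at 48 h left out. Genes called at 48 h numbered 2 with the replicate block and 3 with the 4 libraries at 48 h alone and the block, against 1 otherwise. The block took IL2RA past the threshold (-1.40, adjusted p = 0.0482 in limma; 0.506 without it) and changed no other call in the fit of all 16 libraries, while at 48 h alone it called IL2RA and also BIRC3 (adjusted p = 0.0356 in limma). Genes at least 2-fold apart in both rounds numbered 9 (7 higher, 2 lower) with 10 added before the log and 165 (96 higher, 69 lower) at 1.5-fold. The lower count follows from the addition, which shrinks the differences of weak genes.

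Of 1016 values of the 127 named genes other than PHF8 under 8 alternatives, 970 kept their side of the threshold and direction, 1 passed it, 0 lost it and 45 turned direction, in 27 genes, none of them called. The 1 that passed was IL2RA with the block. The fit of the 48 h libraries alone with the block, in which BIRC3 also passed, was not among these 8. VIM turned to 0.13 under quantile normalisation. Leaving out 1 library at 48 h, which unbalances the rounds, gave log2 differences that crossed 0 in CDH1 (-1.82 to 0.50), CDH2 (-0.22 to 0.28), CHAC1 (-1.29 to 0.49), DNAJA1 (-0.10 to 0.60), DNAJB1 (-0.29 to 0.11), EHF (-0.18 to 1.33), FAP (-0.21 to 0.16), FDPS (-0.27 to 0.43), FN1 (-0.035 to 0.60), FOXA1 (-0.50 to 0.055), GATA3 (-0.55 to 0.29), HIST1H2BK (-0.43 to 0.010), HSPB1 (-0.54 to 0.11), ITGA2 (-1.23 to 0.38), ITGB4 (-1.36 to 0.097), ITGB6 (-2.34 to 0.054), KRT80 (-0.031 to 1.69), MMP9 (-1.16 to 2.60), NEDD9 (-1.45 to 0.12), NFE2 (-0.037 to 0.19), S100A8 (-0.26 to 0.87), SMAD7 (-0.30 to 0.58), SNAI1 (-1.29 to 0.51), SNAI2 (-0.39 to 0.051), TP63 (-1.64 to 0.21), TRIB3 (-1.06 to 0.36) and VIM (-0.18 to 0.17). No read counts were analysed here, so what depth limits cannot be stated.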
